A study of Macaca mulatta with 30 samples.

Results

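A set of 8 genes listed for opposite states of the endothelium was followed in fetal rhesus lung and hippocampus after antenatal betamethasone. ESM1, APLN, APLNR and ANGPT2 were listed as tip-cell genes. KLF2, KLF4, ENG and THBS1 were listed as genes of the quiescent or anti-angiogenic state. Whether each gene marks its listed state in these tissues was not tested. They were chosen by symbol, with the values of the lung libraries at 4 h of the clinical drug, at 6 h of Beta-Ac and of the controls already known, so those values are a description. No p is given for them, and calls counted on them show only what the choice of genes had fixed. No row matched APLN, which leaves 7 of 8 genes among 30246 lung and 32386 hippocampus gene rows. All 7 had enough reads to be tested in both tissues, among 17644 tested lung genes and 17390 tested hippocampus genes.

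A new vessel is led by a tip cell, which extends filopodia toward vascular endothelial growth factor (VEGF) and restrains its neighbours through DLL4 and Notch. Once a vessel carries flow its endothelium becomes quiescent, and the transcription factors KLF2 and KLF4, which are induced by flow, maintain that state. The capillary bed of the fetal lung is still expanding at the ages studied. In pieces of whole tissue, fewer endothelial cells and less RNA per cell cannot be told apart.

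Pregnant macaques were injected with saline or betamethasone (intramuscularly, per the lung labels), and RNA of the fetal tissue was sequenced. Lung labels give a wild type genotype. The 15 lung libraries form 5 groups of 3. Lung labels state no interval for the saline controls, and the hippocampus labels of the same 3 animals give 5 days. The clinical drug Celestone (betamethasone phosphate with betamethasone acetate) was given at 0.25 mg/kg with delivery at 4 h or 5 days. Betamethasone acetate alone (Beta-Ac) was given at 0.125 mg/kg with delivery at 6 h or 5 days. Lung labels give gestational days 124 to 130. The 15 hippocampus libraries form 3 groups of 5, all labelled 5 days from injection to delivery and gestational days 130 to 136: saline (CTL), Beta-Ac (BAC) and the clinical drug (CEL). These 2 drug groups follow the library names, because the treatment and dose fields say the opposite, whereas the lung labels of the 6 treated animals with both tissues go with the names. Both tissues came from 9 animals, and within each tissue the library names give each library an animal of its own. For those 9 animals the hippocampus labels give later days than the lung range, so the labels conflict on gestational age. The doses differ by design, so no comparison between drugs separates the formulation from the dose.

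Total counts on genes were 14.1 to 45 M per lung library and 18.3 to 29.3 M per hippocampus library. FKBP5, a direct glucocorticoid receptor target used to check exposure, stood at 5.27 to 5.83 CPM (read counts scaled to the library total) in the lung controls, at 120 to 219 CPM at 4 h of the clinical drug and at 18.9 to 106 CPM at 6 h of Beta-Ac. At 5 days it was 5.78 to 6.68 CPM over both drugs. The endothelial markers PECAM1 and CDH5 were detected in every library of both tissues, and 16 of 22 endothelial markers matched in lung and 17 in hippocampus. The hippocampal library CTL212 stood apart, with a summed level of 7 matched choroid plexus markers of 1226 CPM against 13.1 to 32.7 CPM in the other 14 libraries.

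ESM1 encodes endocan, a proteoglycan that tip cells secrete. In the lung it was measured at 3.45, 7.12 and 5.02 CPM in the 3 controls. At 4 h of the clinical drug it was 0.857, 2.02 and 1.19 CPM, and at 6 h of Beta-Ac 1.27, 1.73 and 1.06 CPM. All 6 early libraries lay below all 3 controls, and both early groups covered the same range. The log2 fold change against the controls was -1.98 ± 0.43 (SE, n = 3) in the clinical drug group and -1.93 ± 0.42 in the Beta-Ac group. The clinical drug group was thus 3.94-fold lower than the controls.

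APLNR, the receptor for apelin, separated the early groups. It was 180, 224 and 200 CPM in controls and 208.7, 194 and 161 CPM at 6 h of Beta-Ac, groups that overlapped. At 4 h of the clinical drug it was 49.4, 60.8 and 71.0 CPM, below every other lung library. Log2 fold changes against control were -1.74 ± 0.19 (clinical drug) and -0.10 ± 0.19 (Beta-Ac). Dose and time both differ between these 2 groups.

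ANGPT2 encodes a ligand of the receptor TEK that loosens vessels ahead of sprouting. It was 45.3, 50.04 and 64.3 CPM in controls, 47.5, 67.3 and 41.5 CPM at 4 h of the clinical drug, and 60.8, 46.6 and 69.4 CPM at 6 h of Beta-Ac. All 3 groups overlapped, with log2 fold changes of -0.03 ± 0.22 and 0.15 ± 0.22.

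KLF2, the zinc finger factor that flow induces in endothelium, was 24.9, 25.0 and 23.6 CPM in the lung controls. It was 46.2, 35.1 and 44.2 CPM at 4 h of the clinical drug and 42.6, 44.7 and 46.0 CPM at 6 h of Beta-Ac. Both early groups lay above every control, at log2 fold changes of 0.77 ± 0.12 and 0.86 ± 0.12. KLF4, a related factor that also acts in epithelium and smooth muscle, was 211, 181 and 115 CPM in controls. Both early groups overlapped that range, at log2 fold changes of 0.15 ± 0.27 for the clinical drug (163 to 234.995 CPM) and 0.13 ± 0.27 with Beta-Ac (155 to 214 CPM).

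THBS1, a matrix protein that inhibits angiogenesis and is also made by platelets and stromal cells, was 91.9, 97.3 and 84.1 CPM in controls. It was 207, 170 and 255 CPM at 4 h of the clinical drug and 142, 180 and 284 CPM at 6 h of Beta-Ac. Every early library lay above every control, with log2 fold changes of 1.21 ± 0.22 and 1.15 ± 0.22. ENG, endoglin, is a co-receptor of endothelial cells for TGF-beta and BMP ligands. Its control values were 291, 314 and 287 CPM, and those at 4 h of the clinical drug were 444, 557 and 461 CPM, with no overlap and a log2 fold change of 0.71 ± 0.13. In the Beta-Ac group at 6 h, ENG was 270, 356 and 413 CPM, which overlapped the controls at a log2 fold change of 0.22 ± 0.13. Replicate 3 of the Beta-Ac 6 h group was the highest of its group for ANGPT2, KLF2, KLF4, ENG, THBS1 and FKBP5 (106 CPM, against 18.9 and 31.2 CPM in the other two libraries of that group).

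**Figure D1:**
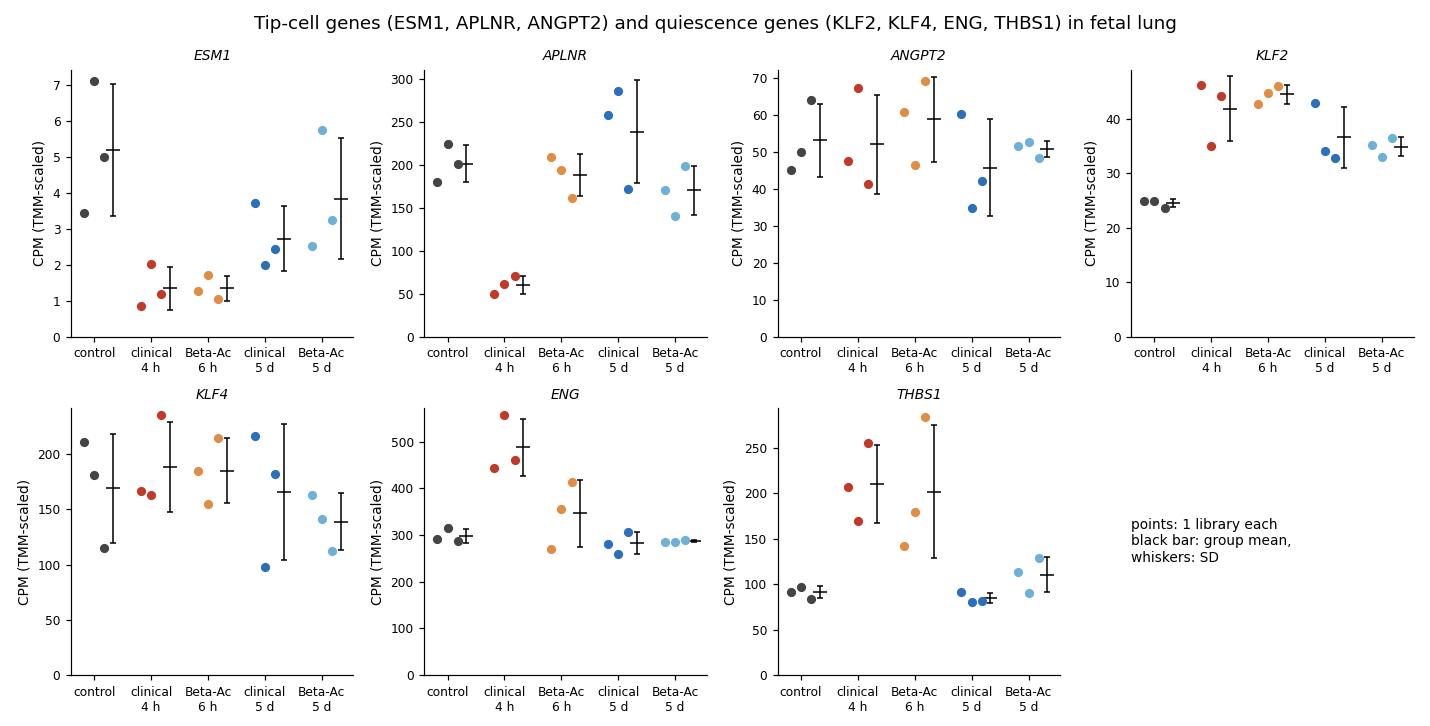
CPM after TMM scaling (vertical axis, from 0) of the 7 measured genes in the 5 lung groups (horizontal axis). Each point is 1 library, and the black bar with whiskers is the group mean with its SD (n = 3). ESM1 was low in both early groups, APLNR was low at 4 h of the clinical drug, and all 12 treated libraries stood above the controls for KLF2.

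A gene was called when its fold change was at least 1.5, its p under 0.05 and its adjusted p under 0.1. By that rule 5 of 7 genes were called at 4 h of the clinical drug (ESM1 and APLNR lower, KLF2, ENG and THBS1 higher), where 7.40% of all tested genes were called. For Beta-Ac at 6 h, 3 of 7 were called (ESM1 lower, KLF2 and THBS1 higher), where 0.442% of all tested genes were called. By separation alone, 3 genes lay wholly above and 2 wholly below the controls at 4 h of the clinical drug, where 11.1% and 10.2% of all tested genes did, and 2 above and 1 below at 6 h of Beta-Ac, where 9.03% and 7.28% did. A direct fit of the 4 h and 6 h groups called APLNR alone, 1 of 7, where 6.74% of all genes were called. These counts follow from the choice of the genes, and nothing is read from them or from the filled points of the fold change plot in the early groups. Leaving out any single control, or replicate 3 of the Beta-Ac group, left only KLF2 called at 6 h of Beta-Ac, and the log2 fold change of THBS1 was 0.82 without that replicate.

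At 5 days in the lung, 6 of the 7 genes overlapped the controls after each drug, and none was called. For the clinical drug 0 of 7 genes passed, as did 0% of all tested genes, and for Beta-Ac 0 of 7 passed where 0.00567% of all tested genes did (edgeR quasi-likelihood test with Storey adjustment). DESeq2 also called 0 in each. At an unadjusted p under 0.05 there were 2 of 7 for the clinical drug (ESM1 and KLF2), where 4.39% of all genes reached it, and 1 of 7 for Beta-Ac (KLF2), where 6.42% did. The treated libraries of these comparisons played no part in choosing the genes, but the 3 controls did.

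KLF2 was the gene that did not return to the control range. At 5 days it was 42.9, 34.1 and 32.7 CPM after the clinical drug and 35.2, 33.0 and 36.4 CPM after Beta-Ac, above all 3 controls in each group. Its log2 fold change was 0.58 (95% confidence interval 0.32 to 0.84) after the clinical drug and 0.51 (0.25 to 0.77) after Beta-Ac. Adjusted over all genes by edgeR, q was 0.561 and 0.641, so the difference did not pass, and its fold of 1.49 and 1.42 was also under the threshold. Across the lung, 12 of 12 treated libraries (32.7 to 46.2 CPM) exceeded the highest of the 3 controls (25.0 CPM), as 0.357% of tested genes did. Nothing is read from that share, because the controls and both early groups were known when KLF2 was chosen. For the 5-day groups alone, 6.25% and 5.73% of tested genes had treated libraries all above the controls, and 6.02% and 6.40% all below, where none of the 7 genes lay. All 4 treated groups share the same 3 controls, which for KLF2 span 23.6 to 25.0 CPM. The KLF2 group means ran, from high to low, Beta-Ac 6 h, clinical drug 4 h, clinical drug 5 days, Beta-Ac 5 days and control. Each group overlapped its neighbour in that order except the last pair, Beta-Ac at 5 days and control.

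ESM1 at 5 days was 3.73, 1.99 and 2.46 CPM after the clinical drug and 2.54, 5.75 and 3.24 CPM after Beta-Ac. Both groups overlapped the controls, at log2 fold changes of -0.93 (95% interval -1.79 to -0.07, edgeR q = 0.931) and -0.43 (-1.28 to 0.42, edgeR q = 0.847). ESM1 rested on few reads, from 19 to 149 per lung library.

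APLNR at 5 days was 258, 286 and 171 CPM after the clinical drug and 171, 141 and 199 CPM after Beta-Ac. Against control the log2 fold changes were 0.24 (-0.16 to 0.65) and -0.24 (-0.65 to 0.16). Between the drugs APLNR differed by 0.49 (0.08 to 0.89) on the log2 scale, clinical drug above Beta-Ac, with an unadjusted p of 0.0215 that did not pass after adjustment (edgeR q = 0.999), and the groups overlapped.

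ENG, at 260 to 307 CPM after the clinical drug and 285 to 289 CPM after Beta-Ac, had log2 fold changes of -0.07 (-0.36 to 0.21) and -0.05 (-0.34 to 0.23). THBS1, at 80.9 to 91.3 and 89.9 to 128 CPM, had -0.10 (-0.56 to 0.35) and 0.28 (-0.18 to 0.73). The intervals of the clinical drug lay below its log2 fold changes at 4 h, 0.71 for ENG and 1.21 for THBS1. For Beta-Ac the value at 6 h was 0.22 for ENG, inside its 5-day interval, and 1.15 for THBS1, above it. The early values were known when the genes were chosen, and the difference between times was not tested. ANGPT2 and KLF4 overlapped the controls in both groups, with log2 fold changes from -0.28 to -0.03. Of the 7 genes compared between the drugs at 5 days in lung, 0 were called, where 0% of all tested genes were called, and 1 of 7, APLNR, had an unadjusted p under 0.05, where 3.15% of all genes did. DESeq2 called 0. None of the 7 had drug groups that did not overlap, where 6.25% of all genes had the clinical drug wholly higher and 5.03% wholly lower. The intervals of the other 6 differences all included 0 and reached from -1.35 for ESM1 to 0.84 for KLF4.

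**Figure D2:**
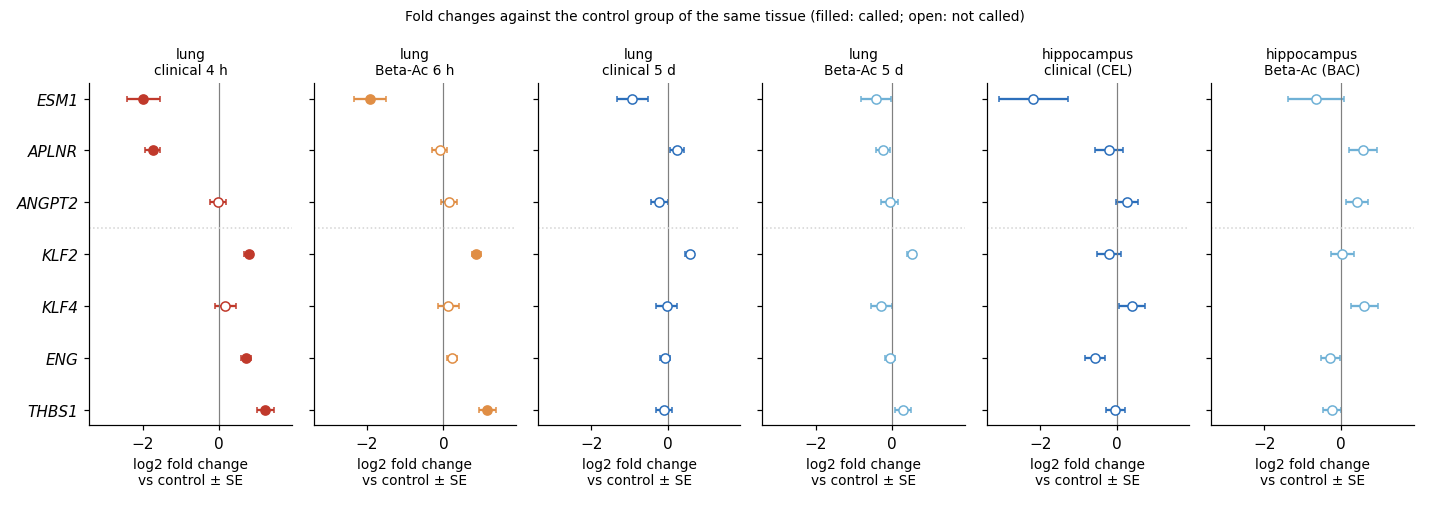
Log2 fold change against the control group of the same tissue (horizontal axis) with its standard error, for the 7 genes (rows, tip-cell genes above the dotted line) in 6 comparisons (panels). Filled points were called and open points were not; 5 were called in the lung at 4 h of the clinical drug, 3 at 6 h of Beta-Ac and 0 in the other 4 comparisons, with KLF2 at 0.58 and 0.51 in the 5-day lung.

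The summed level of 16 pan-endothelial markers was 5409 to 6328 CPM in the lung controls, 4778 to 6094 at 4 h of the clinical drug, 5529 to 5659 at 6 h of Beta-Ac, 5101 to 5796 at 5 days of the clinical drug and 4840 to 4943 at 5 days of Beta-Ac. Only the last group lay wholly below the controls. Divided by that sum, the log2 differences at 4 h of the clinical drug were -1.80 for ESM1, -1.62 for APLNR, 0.89 for KLF2, 0.84 for ENG and 1.32 for THBS1. For KLF2 at 5 days they were 0.67 (clinical drug) and 0.75 (Beta-Ac). KLF2 is not in the sum, and its ratio to the sum was 0.395 to 0.460% in controls and 0.621 to 0.907% over the 12 treated libraries. The 5-day Beta-Ac difference of APLNR became -0.01 and that of THBS1 became 0.51 on this scale. KDR, CD34 and FLI1 are in the marker sum and were themselves lower at 4 h of the clinical drug, with log2 fold changes of -1.16 ± 0.14, -0.97 ± 0.16 and -0.86 ± 0.14, and no other of the 16 markers was called.

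**Figure D3:**
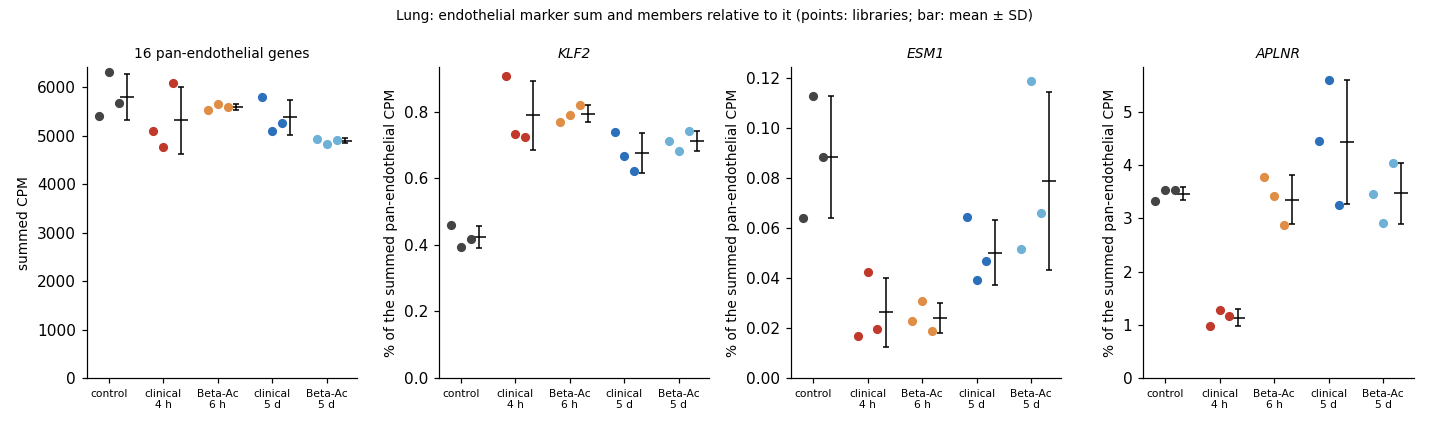
Summed CPM of 16 pan-endothelial markers (left panel) and the levels of KLF2, ESM1 and APLNR as a percentage of that sum (vertical axes, from 0) in the 5 lung groups, with 1 point per library and the group mean with its SD (n = 3). The ratio of KLF2 to the sum was 0.395 to 0.460% in controls and at least 0.621% in every treated library, and that of APLNR was 0.970 to 1.27% at 4 h of the clinical drug against 3.33 to 3.53% in controls.

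Of 36 tested genes of sprouting, guidance and tip-cell matrix, 9 were called lower and 2 higher at 4 h of the clinical drug, where 3.94% of all genes were called lower and 3.46% higher. The median log2 fold change was -0.30, against 0.02 over all tested genes. Those with the largest values were KDR, the main VEGF receptor, at -1.16 ± 0.14, the protease PLAU at -1.13 ± 0.35, the co-receptor NRP2 at -0.99 ± 0.25 and CD34 at -0.97 ± 0.16. LAMB1, a laminin chain, was higher at 1.67 ± 0.18, as was the insulin receptor INSR at 0.72 ± 0.22. For Beta-Ac at 6 h, 1 of the 36 was lower, the chemokine CXCL12 at -0.88 ± 0.14, and 1 was higher, LAMB1 at 0.97 ± 0.18, where 0.0737% and 0.368% of all genes were. The 16 pan-endothelial markers, which also hold KDR and CD34, had a median of -0.21 at 4 h of the clinical drug, with 3 called lower. The gene lists here and below were chosen with earlier results of these data known, so nothing is read from their early counts.

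Of 34 tested maturation genes, 4 were called higher and 2 lower at 4 h of the clinical drug, where 3.46% and 3.94% of all genes were. Over the alternative settings these counts ran from 3 to 8 higher and from 2 to 8 lower, with 8 and 8 when no fold threshold was set and 6 lower without replicate 3 of the clinical drug group. The 4 were the transcription factors FOXO3 (1.86 ± 0.33) and FOXO1 (1.23 ± 0.29), the anti-angiogenic protease ADAMTS1 (1.65 ± 0.25) and the Notch target HEY1 (0.61 ± 0.22). The 2 were the arterial connexin GJA5 (-1.16 ± 0.27) and the ligand BMP6 (-1.13 ± 0.28). With Beta-Ac at 6 h, ADAMTS1 (1.47 ± 0.25) and HEY1 (1.12 ± 0.22) were higher. The median of the list was -0.06 and 0.07. Among 8 lung capillary markers, PRX was higher at 1.82 ± 0.16 and EDNRB at 1.01 ± 0.30, and CD93 was lower at -0.70 ± 0.23, at 4 h of the clinical drug, and PRX was higher at 0.81 ± 0.16 at 6 h of Beta-Ac. At 5 days edgeR called 0 genes of these lists for either drug, where 0 and 1 of all 17644 tested genes were called.

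Markers of other cells were counted beside the 7 genes. At 4 h of the clinical drug 3.94% of all tested genes were called lower and 3.46% higher. In that comparison 4 of 7 tested T cell markers were called lower and 1 higher, and 2 of 5 platelet markers lower. There were also 1 of 10 mesenchymal markers lower, 1 of 6 macrophage markers higher and 2 of 9 lung epithelial markers higher. Of 9 immediate early genes, 1 was called in each direction. Nothing is read from single calls in lists this short. Summed levels overlapped the controls for macrophage, mesenchymal and immediate early genes. Lung epithelial markers summed to 13584 to 19933 CPM, above the 8535 to 12393 CPM of the controls, led by SFTPC (1.13 ± 0.28) and ABCA3 (0.93 ± 0.19), and at 6 h of Beta-Ac to 10693 to 15378 CPM, which overlapped the controls. At 5 days of Beta-Ac, where KLF2 also stood above the controls, they summed to 12872 to 14473 CPM, again wholly above the controls, and at 5 days of the clinical drug to 9975 to 13279 CPM, which overlapped. At 4 h of the clinical drug the matched platelet markers summed to 57.1 to 63.5 CPM, against 56.6 to 58.6 CPM in controls. T cell markers, which include IL7R, summed in that group to 53.7 to 142 CPM, against 69.5 to 74.2 CPM in controls. Every matched marker of these lists had reads in the lung. None of these genes was called by edgeR at 6 h of Beta-Ac. Whether cell composition had a part in the values of the 7 genes was not tested.

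Over the 15 lung libraries, which span all 5 groups and share them, ESM1 ran opposite to KLF2 (r = -0.78) and THBS1 (r = -0.77), and APLNR ran opposite to ENG (r = -0.86). ENG and THBS1 went together (r = 0.78), whereas ESM1 and APLNR were less alike (r = 0.49), and ANGPT2 was unlike all others, with r from -0.08 to 0.23. These correlations of log2 CPM describe the group differences above. Among genes with a symbol and a mean of at least 1 CPM, lung patterns among the most like each gene were CEP170 (0.89) and CD274 (0.86) for ESM1, FSCN1 and PRAG1 (both 0.94) for APLNR, B3GNTL1 (0.82) and RAB24 (0.79) for ANGPT2, EHF (0.88) and GAREM1 (0.85) for KLF2, NELFB (0.82) and MNAT1 (0.80) for KLF4, ARRDC2 (0.94) for ENG, and ADGRG1 (0.95) and BCL2L1 (0.94) for THBS1. No other of the 7 genes was among them.

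None of the 7 genes was called in the hippocampus 5 days after either drug, and for every gene the groups overlapped. Over all tested genes, the clinical drug group lay wholly above CTL for 5.07% and wholly below for 10.0%, the Beta-Ac group for 0.460% and 0.868%, and the clinical drug group against Beta-Ac for 1.55% and 1.21%. The counts were 0 of 7 for the clinical drug, where 7.86% of all tested genes were called (2.50% higher and 5.35% lower), 0 of 7 for Beta-Ac, where 0% were, and 0 of 7 between the drugs, where 0% were (edgeR, Benjamini-Hochberg adjustment). DESeq2 called 0 in each. At an unadjusted p under 0.05 there were 2 of 7 for the clinical drug (ESM1 and ENG), where 30.6% of all genes reached it, and 0 of 7 in the other comparisons, where 12.3% and 13.5% did. The hippocampus was not used to choose the genes.

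ESM1 was at the edge of detection in the hippocampus. Its reads were 7, 3, 1, 5 and 33 in CTL, 9, 7, 6, 3 and 8 in BAC, and 6, 1, 0, 1 and 1 in CEL, and it was tested because 5 libraries reached 7 reads. The 33 reads came from CTL212. The log2 fold change of the clinical drug against control was -2.18 (95% interval -4.08 to -0.28, edgeR adjusted p = 0.104). Without CTL212 too few libraries reached 7 reads for a test, as also in a fit of only the 2 groups, and the CTL mean went from 0.405 ± 0.524 CPM (SD, n = 5) to 0.176 ± 0.133 CPM (SD, n = 4), beside 0.256 ± 0.081 CPM in BAC and 0.088 ± 0.117 CPM in CEL. Leaving out CTL101, CTL113 or CEL115 instead gave a call at -2.42, -2.47 or -3.35.

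ENG was 17.6, 23.1, 23.98, 15.0 and 35.3 CPM in CTL, 21.2, 11.04, 13.8, 26.0 and 23.0 CPM in BAC and 11.5, 13.7, 16.8, 15.6 and 20.4 CPM in CEL. The 35.3 CPM was again CTL212, which also had the highest summed pan-endothelial markers of all 15 libraries, 744 CPM. For the clinical drug the log2 fold change was -0.56 (-1.10 to -0.02, edgeR adjusted p = 0.151), and it was -0.35 without CTL212 (adjusted p = 0.345). With the sequencing run of the labels as a block it was -0.85 and passed (edgeR adjusted p = 0.0658). CTL092, CTL101 and CTL209 came from runs without a treated library, so that blocked value rests on CTL113 and CTL212 as controls. In the runs that hold both control and treated libraries, the log2 fold change was -0.90 (edgeR adjusted p = 0.160). Within the largest run, which holds 1 CTL, 3 BAC and 3 CEL libraries, it was -0.78.

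APLNR ranged from 11.5 to 27.3 CPM in CTL, from 8.93 to 55.7 CPM in BAC and from 10.97 to 23.6 CPM in CEL. Its log2 fold change for Beta-Ac was 0.57 (-0.21 to 1.35) and fell to 0.14 without BAC237, the library at 55.7 CPM. KLF4 ranged from 8.46 to 16.5 CPM in CTL, from 7.54 to 32.2 CPM in BAC and from 9.47 to 25.0 CPM in CEL, and its log2 fold change for Beta-Ac was 0.61 (-0.13 to 1.35), or 0.24 without BAC130, the library at 32.2 CPM. In both cases 1 library set most of the difference between the means.

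KLF2, which stood above the controls in both lung groups at 5 days, overlapped the controls in the hippocampus. It was 5.01, 7.43, 3.41, 3.65 and 10.04 CPM in CTL, 5.56, 8.65, 4.03, 5.26 and 6.82 CPM in BAC, and 4.87, 2.88, 4.94, 6.04 and 6.92 CPM in CEL. Its log2 fold changes were 0.04 (-0.61 to 0.69) in BAC and -0.20 (-0.86 to 0.45) in CEL. The BAC interval included the 5-day lung value of Beta-Ac, 0.51, and the CEL interval lay below that of the clinical drug, 0.58. CTL212 was the highest control, and without it the difference of CEL was 0.07. The difference between tissues was not tested. ANGPT2 ranged from 4.56 to 14.7 CPM and THBS1 from 58.3 to 141 CPM over the 15 libraries, with log2 fold changes against control in CEL and BAC of 0.27 and 0.42 for ANGPT2 and -0.03 and -0.23 for THBS1, and intervals that all included 0. THBS1 had its lowest CTL value, 59.4 CPM, in CTL212. Between the drugs, the 7 differences had intervals that included 0, from -3.50 for ESM1 to 0.71 for THBS1 at their ends.

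**Figure D4:**
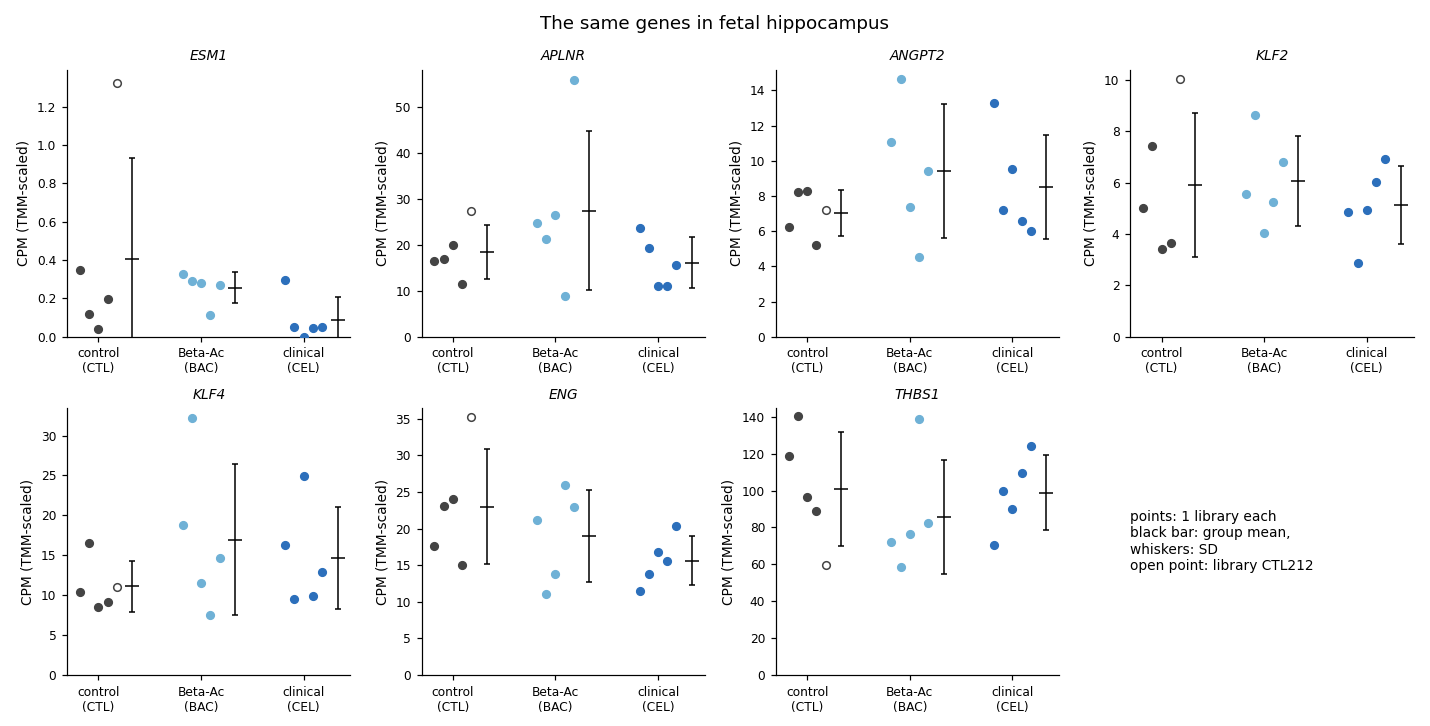
CPM after TMM scaling (vertical axis, from 0) of the 7 genes in the 3 hippocampus groups (horizontal axis), with 1 point per library and the group mean with its SD (n = 5), whiskers ending at the axis where they would pass below 0. The open point is CTL212, which is the highest control for ESM1 (1.32 CPM), APLNR, KLF2 and ENG and the lowest for THBS1 (59.4 CPM), and all 3 groups overlap for every gene.

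The vessel gene lists were counted in the hippocampus in the same way. For the clinical drug, 3 of 36 sprouting genes were called lower, the basement membrane protein NID2 at -0.84 ± 0.33, the arterial ligand EFNB2 at -0.74 ± 0.28 and the adhesion molecule MCAM at -0.64 ± 0.15, where 5.35% of all genes were called lower. Of 36 maturation genes, S1PR1 (0.62 ± 0.12) and SPARCL1 (0.59 ± 0.20) were higher, where 2.50% of all genes were, and COL18A1 (-1.44 ± 0.50) was lower. Of 17 pan-endothelial markers VWF (-0.86 ± 0.34) and EMCN (-0.78 ± 0.30) were lower. S1PR1 and SPARCL1 are also made by astrocytes. Choroid plexus markers were lower in 5 of 6 and mesenchymal markers in 3 of 10. Both had CTL212 highest in the control group (1226 and 2119 CPM, summed over all matched markers). Without CTL212 the counts were 0 of 17 pan-endothelial markers, 2 sprouting genes lower and 1 higher, and 2 maturation genes higher and 0 lower. With the sequencing run as a block they were 6 of 17 pan-endothelial markers lower, 12 of 36 sprouting genes lower and 4 of 36 maturation genes lower with 0 higher. These blocked counts rest on CTL113 and CTL212, the only controls that share a run with treated libraries. Over all tested genes, in either direction, 1357 were called without CTL212 and 958 with the run as a block, beside 1366 in the main fit. Within the largest run no gene of these lists was called, and only 1 of all tested genes was. For Beta-Ac and between the drugs edgeR called no gene of these lists, and 0 of all 17390 tested genes. The part of the run and of CTL212 in these counts was not tested beyond these refits.

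Between tissues the tables were normalized separately, so levels can only be set side by side. In the 9 animals with both tissues, lung CPM was above hippocampus CPM in 9 of 9 for every gene except THBS1, where it was so in 4 of 9. The median ratio of lung to hippocampus was 4.83 for ANGPT2, 6.62 for KLF2, 10.3 for KLF4, 10.9 for APLNR, 18.3 for ENG and 0.911 for THBS1, and 16.3 for ESM1 over the 8 animals with hippocampal ESM1 reads. In the hippocampus the gene most like KLF4 over the 15 libraries, apart from itself, was ANGPT2 (r = 0.82), followed by ZFP36 (0.78), and no such pairing of 2 of the genes was seen in lung, where their r was 0.22. The nearest patterns of the others in hippocampus were ACOX2 (0.85) and QNG1 (0.83) for ESM1, GPNMB (0.83) and STAT3 (0.78) for APLNR, TBX18 (0.87) and CYP1B1 (0.85) for ANGPT2, HIC1 (0.88) and ID1 (0.87) for KLF2, ARAP1 (0.97) and DNAJC1 (0.95) for ENG, and SEPTIN5 (0.91) and PSD (0.88) for THBS1.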

How the data were processed

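The deposited files hold whole-number counts of reads per Ensembl gene, made by the authors from polyadenylated RNA (hippocampus, 75 bp paired-end reads, per the labels). The submitters' processing notes name Bowtie 1.2.1.1 and featureCounts 1.5.1 for lung and Bowtie2, featureCounts and edgeR for hippocampus, and the study's methods name Bowtie 2 and rhesus build MMUL1.0. Whether counting used strand is not given in the sources used here. Symbols came from an Ensembl name table and matched 52.1% of lung and 54.4% of hippocampus identifiers.

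edgeR 4.0.16 in R 4.3.3 was run once per tissue, on all its groups together, with TMM scaling and the quasi-likelihood F-test. A gene entered when 7 reads or more were counted in 3 lung libraries or in 5 of hippocampus. Adjustment was over every tested gene, as Storey q for lung and after Benjamini-Hochberg for hippocampus. Called genes had p under 0.05, an adjusted p under 0.1 and a 1.5-fold difference or more. Prior counts were 0.125 in the fits and 2 in log2 CPM for correlations. CPM, their SDs and intervals reflect the spread between fetuses at 14.1 to 45 M counts in lung and 18.3 to 29.3 M in hippocampus. The procedure was tested on simulated counts. Alternatives were other scaling, filters, adjustment, DESeq2 1.42.0, 2-group fits, each library left out and, in hippocampus, run terms.

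The genes and all lists were chosen with earlier results of these data known. Named genes are the 8 genes, up to 4 called genes per direction of the sprouting, maturation and capillary lists, up to 3 of other lists, the 2 most similar genes to each, and FKBP5. A gene that this rule names is not reported here. P-values set the difference between groups against the spread between libraries. The values of KLF2 across all 12 treated lungs and the epithelial marker sum were singled out after they were seen. Libraries were grouped by the labels, and in hippocampus by library name.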

Additional observations from a re-analysis of the deposited data

Results flagged for a closer look

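In groups of 5 hippocampus libraries, the gap of the highest or lowest library to its neighbour, divided by the range of the group, passed Dixon's 95% critical value of 0.71 in 3 places, all for ESM1, over 21 groups. Chance flags about 1 group in 20. ESM1 was 1.32 CPM in CTL212, the highest control, 0.116 CPM in BAC235, the lowest of the Beta-Ac group, and 0.295 CPM in CEL115, the highest of the clinical drug group. These rest on 33, 3 and 6 reads.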

How the results depend on the processing

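No log2 fold change of a called gene changed sign under any alternative that was run. At 6 h of Beta-Ac in lung 3 genes were called, and 1 with a fit of only the 2 groups compared, with a range of 1 to 3 when each library was left out. Between the 4 h and 6 h lung groups 1 gene was called, and 2 without a fold change threshold, with a range of 1 to 2 when each library was left out. The added gene was ENG, at a log2 fold change of 0.49, or 0.64 without replicate 3 of the Beta-Ac 6 h group. In the hippocampus after the clinical drug 0 genes were called. With Storey q 1 was called (ESM1, adjusted p = 0.0496), and with the sequencing run as a block 1 was called (ENG). The count ran from 0 to 1 when each library was left out (ESM1 without CTL101, CTL113 or CEL115). In the blocked fit only CTL113 and CTL212 share a run with treated libraries. The cause of these shifts was not tested. The counts of members called in the other 6 comparisons were the same in every alternative run. The number of genes called over the whole table moved more: at 6 h of Beta-Ac from 78 to 19 in the 2-group fit and 247 with DESeq2 (9 without control replicate 1, 211 without Beta-Ac 6 h replicate 2), between 4 h and 6 h from 1189 to 314 in the 2-group fit and 2389 without a fold threshold (667 and 1971 without clinical drug 4 h replicates 2 and 1), at 4 h of the clinical drug from 1306 to 884 in the 2-group fit and 2104 without a fold threshold, and in hippocampus after the clinical drug from 1366 to 1 in the largest run alone and 3816 without a fold threshold. DESeq2 called 16, 40 and 8 lung genes in the 5-day comparisons and 149 and 186 hippocampus genes for Beta-Ac and between the drugs, where edgeR called 0, 1, 0, 0 and 0. Without BAC128 edgeR called 184 hippocampus genes for Beta-Ac, and without control replicate 3 it called 9 lung genes at 5 days of the clinical drug. Depth limits ESM1, with at most 33 reads per hippocampus library. No paired analysis was possible because, by the library names, the groups compared within a tissue share no animal.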
